A study of Mus musculus with 2 samples.

Results

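The period genes Per1, Per2 and Per3, the cryptochrome genes Cry1 and Cry2, and Ciart (also called Chrono) encode the repressors of the circadian clock. They are 6 of the 32285 genes in the deposited tables, taken by their gene symbols, though with earlier results of these data known. They were measured in single cells of the tongue epithelium of male mice of the B57BL/6 strain (as the labels spell it), aged 8 to 12 weeks. One library came from tissue taken at Zeitgeber time 0 (ZT0, lights on by convention) and another at Zeitgeber time 12 (ZT12, lights off). The labels name no genotype change or treatment, and how many mice were pooled per library is unknown here. The epithelium was minced and dissociated with a trypsin-like enzyme, and living cells, those that excluded the dye 7-AAD, were sorted before 3' libraries were made. With 1 library per time, no test between the times was possible, and every difference below compares 2 libraries with no replicate check.

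In the clock of mammalian cells, the activators BMAL1 (gene Arntl) and CLOCK bind E-box sequences and switch on the period and cryptochrome genes. The PER and CRY proteins then form a complex that enters the nucleus and shuts the activators down, and casein kinases and ubiquitin ligases set how long the complex lasts. CIART is a further repressor that binds the activators, and skin and oral keratinocytes are known to carry this clock.

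Filtering left 1593 cells at ZT0 and 2620 at ZT12, with medians of 28401 and 23088 UMIs (unique molecular identifiers, one for each captured transcript) per cell. The libraries shared 2 cell barcodes. Clusters were found without clock genes, and classes were named from markers. Basal-like cells (448 in the ZT0 library, 743 in the ZT12 library) carried the keratins Krt5 and Krt14 at 5445 and 10363 CPM (the gene's UMIs scaled to a common total), against 1359 and 1684 CPM in differentiated-like cells. Differentiated-like cells (640 and 1402) carried Krt13 at 35774 CPM, against 3629 CPM in basal-like cells. Filiform-like cells numbered 88 and 149 and were named for the hair-type keratins Krt36 and Krt84 of the filiform papillae. They carried Krt36 at 9020 CPM, against 21.6 CPM in differentiated-like cells. Of the other filiform markers, Krt86, Hoxc13 and Msx2 were also higher than in differentiated-like cells, and Krt81 was scarce (0.987 CPM). Tchh (38.5 against 254 CPM) and Padi1 (0.1975 against 6.61 CPM) were lower. Proliferating-like cells numbered 199 and 72. Krt14 did not mark basal-like cells alone, since filiform-like cells carried it at 19056 CPM (Krt5 at 519 CPM). The remaining cells, 162 and 210 unnamed ones among them, enter the values for all cells. In clusters of at least 50 cells they also enter the values by cluster. Simple epithelial-like cells are described at the end. Different clusters filled some classes at the 2 times. Cluster 8 held 198 of the 448 ZT0 basal-like cells, while cluster 3 held 335 of the 743 from ZT12. Cluster 8 and cluster 11, which held 153 of the 640 differentiated-like cells at ZT0, had interferon-induced genes such as Ifi27l2a among their leading genes. Of the proliferating-like cells at ZT12, 40 of 72 lay in a DNA replication cluster (cluster 18) that held 11 of 199 at ZT0.

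The 6 genes lie on 6 chromosomes of the mm10 build. In the GENCODE M21 annotation, Per1 spans chr11:69095217-69109960 (plus strand), Per2 chr1:91415982-91459324, Per3 chr4:151003652-151044665, Cry1 chr10:85131700-85185064, Cry2 chr2:92403646-92434043 and Ciart chr3:95878503-95882251 (all minus strand). Per3 overlaps Camta1 on the same strand, so the split of reads between these genes is uncertain. Cry2 overlaps D930015M05Rik, and Ciart overlaps C920021L13Rik, on the opposite strand. Promoter sequence was found for 5 of the 6 genes in a RefSeq table (GRCm38.p6), and Per2 was not among them. The window read ran from 250 to 31 bases before the transcription start. It held no annotated exon of the 6 genes, and exons of other genes were not checked. It was searched on both strands for the E-box CACGTG, the related E-prime box CACGTT, the D-box (TTATGTAA or TTACGTAA), which DBP, TEF and HLF bind, the receptor half-site AGGTCA and the cyclic AMP response element TGACGTCA. None of these motifs overlapped another in the windows shown.

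The windows of Per1, Per3, Cry1 and Ciart are printed because they hold the E-boxes and D-boxes found in this set, and because Cry1 differed between the times in the opposite direction from the others. Capitals mark matches to the E-box, the E-prime box (CACGTT, read here as AACGTG from the other strand) and the D-box.
Per1, chr11:69098699-69098918, plus strand: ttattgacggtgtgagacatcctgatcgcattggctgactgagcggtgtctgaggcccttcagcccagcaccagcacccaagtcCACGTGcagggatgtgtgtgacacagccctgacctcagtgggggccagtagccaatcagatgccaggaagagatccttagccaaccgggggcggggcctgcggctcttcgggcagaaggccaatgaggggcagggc
Per3, chr4:151044696-151044915, minus strand: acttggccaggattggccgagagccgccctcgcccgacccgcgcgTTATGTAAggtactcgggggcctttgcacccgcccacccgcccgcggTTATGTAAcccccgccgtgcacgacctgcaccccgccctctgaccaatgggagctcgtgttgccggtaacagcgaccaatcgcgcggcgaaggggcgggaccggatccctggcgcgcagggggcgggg
Cry1, chr10:85185085-85185304, minus strand: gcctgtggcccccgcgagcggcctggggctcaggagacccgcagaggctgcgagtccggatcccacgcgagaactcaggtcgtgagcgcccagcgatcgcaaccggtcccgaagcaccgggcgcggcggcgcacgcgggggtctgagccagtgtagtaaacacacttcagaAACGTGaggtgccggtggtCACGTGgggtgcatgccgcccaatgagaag
Ciart, chr3:95882259-95882478, minus strand: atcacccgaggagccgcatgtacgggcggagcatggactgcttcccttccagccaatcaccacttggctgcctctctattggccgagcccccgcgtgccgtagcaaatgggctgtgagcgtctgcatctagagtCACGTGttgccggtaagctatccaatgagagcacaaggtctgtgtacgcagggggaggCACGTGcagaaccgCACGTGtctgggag
Ciart held 3 E-boxes, at 116, 58 and 44 bases before the start (counted to the first base of each). Cry1 held 1 E-box at 60 and 1 E-prime box at 79 bases before the start. The Per1 window held 1 E-box at 166 bases and 1 half-site AGGTCA, printed in lower case as tgacct. A further Per1 window, at chr11:69099902-69100121, held none of the motifs. Both Per1 windows precede RefSeq starts that lie within the annotated Per1 span, while the windows of the other genes lie outside their spans. Per3 held 2 D-boxes, at 205 and 158 bases, and no E-box. Cry2 (chr2:92434100-92434319, minus strand) held 1 E-prime box at 166 bases. Among 32851 windows of the same length, 5.01% held an E-box, 3.40% an E-prime box, 0.831% a D-box and 12.5% the half-site AGGTCA. These matches are letters in a window and were not measured as binding sites.

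The period genes were all higher in the ZT12 library. Per1, which responds to hormones and cyclic AMP as well as to the clock, gave 311 UMIs at ZT0 and 1604 at ZT12. That is 6.31 CPM (95% Poisson interval 5.63 to 7.06) and 23.9 CPM (22.8 to 25.1), a ratio of 3.79 (exact interval 3.35 to 4.29). Intervals here and below cover counting error only. Per2, a core repressor without which the clock loses its rhythm in mice, had 5.14 CPM (4.52 to 5.81) and then 21.8 CPM (20.7 to 22.9), a ratio of 4.24 (3.71 to 4.86). Per3, the period gene least needed for the clock itself, had 12.7 CPM (11.7 to 13.7) at ZT0 and 112 CPM (109 to 114) at ZT12, a ratio of 8.80 (8.11 to 9.57).

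The cryptochromes went opposite ways. Cry1, which binds and blocks CLOCK and BMAL1 on DNA, stood at 34.0 CPM (32.4 to 35.7) in the ZT0 library and 15.4 CPM (14.5 to 16.4) in the ZT12 library, and so 2.21-fold (2.04 to 2.39) higher at ZT0. Cry2, its paralog, had 10.8 CPM (9.88 to 11.7) in the ZT0 library and 29.2 CPM (28.0 to 30.6) at ZT12, a ratio of 2.71 (2.46 to 2.99). Ciart was higher at ZT12 too, with 2.13 CPM (1.74 to 2.58; 105 UMIs) at ZT0 and 16.0 CPM (15.01 to 16.9; 1070 UMIs) at ZT12, a ratio of 7.49 (6.12 to 9.24). The intervals of the Per3 and Ciart ratios overlapped in all cells, and in basal-like cells the Ciart ratio was 10.96 (6.26 to 20.96) and the Per3 ratio 9.24 (7.94 to 10.8). Cry1 was the 1 gene of the 6 whose higher library was ZT0.

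A gene was called when its mean over both libraries was at least 5 CPM, its log2 ratio of CPM + 1 reached 1 in either direction, and the interval of the ratio of counts left out 1. In all cells 5 of the 6 genes were called higher at ZT12, against 0.283% of the 9543 genes measured at that level, and Cry1 was called lower, against 2.49%. The median log2 ratio was 1.83 over the 6 genes and -0.03 over all genes. The call on Cry1 lay close to the limit (log2 ratio -1.09). It was lost with a pseudocount of 5 CPM and without the 5 clusters that came mostly from 1 library, where the log2 ratio was -0.91.

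**Figure D1:**
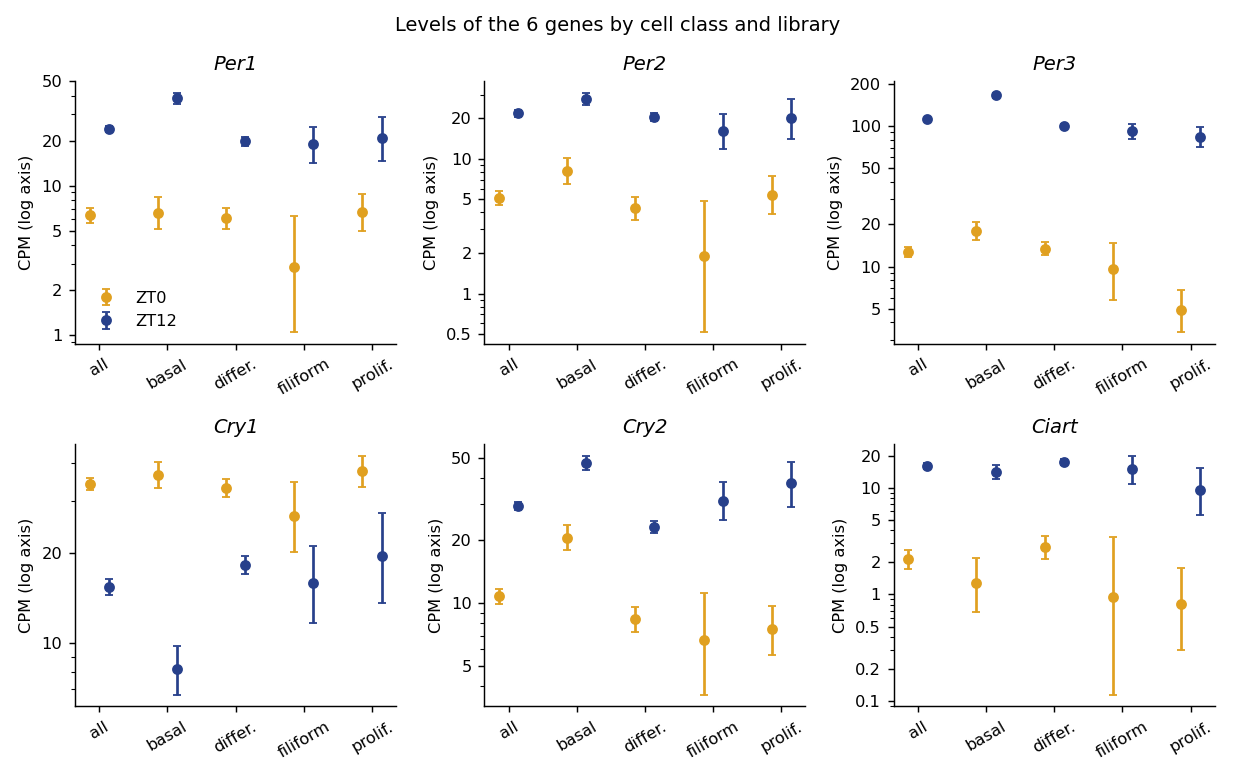
CPM of each gene (log axis) in all cells and in the basal-like, differentiated-like, filiform-like and proliferating-like cells of the ZT0 and ZT12 libraries. Points are summed UMIs over cells and bars are 95% Poisson intervals, which cover counting error only. Cry1 is the 1 gene with ZT0 above ZT12, and its ZT12 level is lowest in basal-like cells, at 8.17 CPM.

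Across the 4 keratinocyte classes the same directions were seen. In basal-like cells 5 genes were called higher (background 0.71%) and Cry1 lower (background 1.02%). In differentiated-like cells 5 were called higher (background 0.413%), as were 5 in filiform-like cells (background 1.05%) and 5 in proliferating-like cells (background 2.11%). In these 3 classes 0 of the 6 were called lower, where the backgrounds were 0.983%, 0.954% and 3.6%, since Cry1 was lower at ZT12 by less than the 2-fold limit. Its ratios of ZT12 over ZT0 were 0.552 (0.5003 to 0.610) in differentiated-like, 0.594 (0.395 to 0.892) in filiform-like and 0.521 (0.355 to 0.742) in proliferating-like cells. At a limit of 1.5-fold, 5 genes were called higher and Cry1 lower in all 4 classes and in all cells. Of all genes, that limit called 1.03% higher and 4.82% lower in all cells, and 2.68% and 3.59% in basal-like cells. The same shares were 1.36% and 2.23% in differentiated-like, 2.89% and 2.84% in filiform-like, and 6.6% and 8.71% in proliferating-like cells. In proliferating-like cells it also passed the 2-fold limit with coarser clusters (Leiden resolution 0.5, log2 ratio -1.09) and when cycling cells were taken by their S and G2/M list UMIs (log2 ratio -1.38). In basal-like cells the Cry1 ratio was 0.223 (0.179 to 0.276), so that Cry1 was 4.48-fold (3.62 to 5.58) higher at ZT0. Without clusters 3 and 8 the log2 ratio in basal-like cells was -1.33 in place of -2.04, still past the limit.

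The order of the classes depended on the gene and the time. At ZT12, Per1 stood at 38.3 CPM (35.1 to 41.7) in basal-like, 20.7 (14.6 to 28.6) in proliferating-like, 19.7 (18.5 to 21.1) in differentiated-like and 18.9 CPM (14.3 to 24.5) in filiform-like cells. The basal-like level was 1.94-fold (1.74 to 2.16) that of differentiated-like cells, and the other 3 classes did not differ beyond counting error. Without the basal-like clusters that came mostly from a single library, the ratio of basal-like over differentiated-like cells was 1.53 (1.31 to 1.77). At ZT0 no pair of neighbours in the order differed for Per1, whose levels were 6.60, 6.67, 6.05 and 2.86 CPM in the same order of classes.

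Per2 at ZT12 was at 28.0 CPM (25.3 to 30.9) in basal-like cells, 1.37-fold (1.21 to 1.54) the 20.5 CPM of differentiated-like cells. Proliferating-like cells held 20.2 and filiform-like cells 16.2 CPM, which did not differ from each other or from differentiated-like cells beyond counting error, and the interval of basal-like over proliferating-like cells (0.984 to 2.01) included 1. At ZT0 Per2 was at 8.17 CPM (6.51 to 10.1) in basal-like and 4.30 CPM (3.52 to 5.21) in differentiated-like cells, with overlapping clusters. Without the basal-like clusters 3 and 8 the basal-like level was 5.41 CPM (3.67 to 7.67), and its ratio over differentiated-like cells was 1.26 (0.813 to 1.89) in place of 1.90 (1.41 to 2.55).

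Per3 at ZT12 ran from 165 CPM (158 to 172) in basal-like cells through 99.7 (96.7 to 103) in differentiated-like and 91.4 (80.8 to 103) in filiform-like to 83.5 CPM (70.7 to 98.1) in proliferating-like cells. The neighbours below basal-like cells did not differ beyond counting error. At ZT0 basal-like cells had 17.8 CPM (15.3 to 20.6) and differentiated-like cells 13.4 CPM (12.0 to 14.9), but the clusters of these classes overlapped. Without cluster 8, which held 105 of the 181 basal-like UMIs, and cluster 3, the basal-like level was 12.7 CPM (9.98 to 16.0). Its ratio over differentiated-like cells was then 0.9501 (0.727 to 1.23) in place of 1.33 (1.103 to 1.60). Proliferating-like cells stood lowest at ZT0, at 4.90 CPM (3.43 to 6.78), and basal-like cells were 3.64-fold (2.53 to 5.36) above them. The ratio of ZT12 over ZT0 for Per3 was therefore widest in proliferating-like cells, 17.1 (11.8 to 25.3) against 9.24 (7.94 to 10.8) in basal-like and 7.44 (6.65 to 8.35) in differentiated-like cells. In filiform-like cells it was 9.6 (6.09 to 15.96), an interval that overlapped the proliferating-like one. Proliferating-like cells lay mostly in cluster 7 at ZT0 (188 of 199) and mostly in the DNA replication cluster 18 at ZT12 (40 of 72). In the same proliferating-like cells the 10 immediate early and heat shock genes summed to 6206 CPM at ZT0 and 3058 CPM at ZT12, and 4 of the 10 were called lower. Their part in the result was not tested.

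Cry2 was highest in basal-like cells at both times. At ZT0 it stood at 20.7 CPM (18.0 to 23.7) there, 2.47-fold (2.03 to 3.01) the 8.36 CPM of differentiated-like cells, with 7.48 in proliferating-like and 6.67 CPM in filiform-like cells. At ZT12 it stood at 47.3 CPM (43.7 to 51.0) in basal-like, 37.6 (29.1 to 47.7) in proliferating-like, 31.03 (25.02 to 38.1) in filiform-like and 23.2 CPM (21.8 to 24.7) in differentiated-like cells. The levels of basal-like and proliferating-like cells did not differ beyond counting error at ZT12, while filiform-like cells exceeded differentiated-like cells 1.34-fold (1.07 to 1.65).

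For Cry1 the place of basal-like cells was the opposite at ZT12. Basal-like cells were lowest, at 8.17 CPM (6.73 to 9.82; 113 UMIs), below filiform-like cells at 15.9 (11.6 to 21.1), differentiated-like cells at 18.3 (17.0 to 19.6) and proliferating-like cells at 19.6 CPM (13.7 to 27.3). Differentiated-like cells held 2.23-fold (1.83 to 2.75) the basal-like level, and the 3 upper classes did not differ beyond counting error. At ZT0 the same comparison gave 36.6 CPM (33.0 to 40.5) in basal-like and 33.1 CPM (30.8 to 35.4) in differentiated-like cells, a ratio of basal-like over differentiated-like of 1.11 (0.977 to 1.25). Without clusters 3 and 8 this ratio was 0.791 (0.660 to 0.943) at ZT0 and 0.538 (0.419 to 0.683) at ZT12. Proliferating-like cells were at 37.7 and filiform-like cells at 26.7 CPM at ZT0.

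Ciart at ZT12 was at 17.5 CPM (16.2 to 18.7) in differentiated-like, 14.8 (10.8 to 19.9) in filiform-like, 14.03 (12.1 to 16.1) in basal-like and 9.53 CPM (5.55 to 15.3) in proliferating-like cells. Differentiated-like cells exceeded basal-like cells 1.24-fold (1.06 to 1.46). Without the basal-like clusters that came mostly from a single library, the basal-like level was 9.57 CPM (7.50 to 12.0). The ratio of basal-like over differentiated-like cells was then 0.548 (0.425 to 0.698) in place of 0.804 (0.683 to 0.942). At ZT0 the levels rested on few UMIs, with 68 in differentiated-like, 13 in basal-like, 6 in proliferating-like and 2 in filiform-like cells.

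The pattern was read again in single clusters. Of the 8 clusters with at least 50 cells in both libraries, Per1, Per2, Per3 and Cry2 were higher at ZT12 in 8, and Cry1 was lower in 8, each with an interval that excluded 1. Ciart was higher in 7, and in cluster 12, an unnamed cluster, its interval included 1 (ratio 2.18, 0.854 to 6.00). The share of all genes with such counts was not taken. The clusters share the same libraries, so they are not repeats of the comparison. The Cry1 ratio of ZT12 over ZT0 ran from 0.249 (0.158 to 0.382) in basal-like cluster 5 to 0.639 (0.490 to 0.831) in differentiated-like cluster 6. The Per3 ratio ran from 5.05 (3.95 to 6.54) in differentiated-like cluster 2 to 12.1 (7.93 to 19.2) in basal-like cluster 5. The Per1 ratio was smallest in cluster 2, at 1.94 (1.32 to 2.96). Cluster 2 holds cells with late cornification genes such as Lor and Sprr3 among their leading genes.

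**Figure D2:**
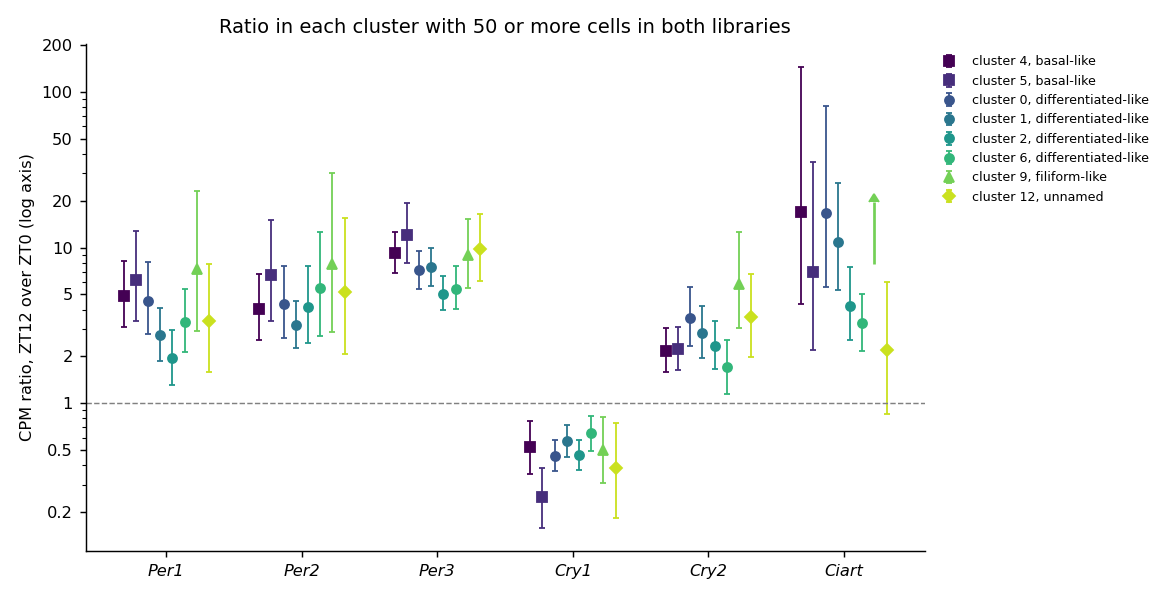
Ratio of CPM, ZT12 over ZT0 (log axis), for each gene in the 8 clusters with 50 or more cells in both libraries. Bars are exact 95% intervals for counting error. The arrow marks Ciart in cluster 9, where the UMIs were 0 (ZT0) and 34 (ZT12), and is drawn from the bound set by a floor of 3 counts at ZT0, at least 7.90-fold higher; the exact lower limit of its ratio is 6.08. All points of Cry1 lie below 1.

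At ZT12 the Cry1 levels of the 3 basal-like clusters (6.19 to 11.1 CPM) lay below those of all 6 differentiated-like clusters (17.4 to 21.2 CPM). Among all genes, 12.8% had basal-like clusters below differentiated-like ones without overlap at ZT12. Per1 (29.2 to 48.4 CPM against 15.4 to 27.5) and Cry2 (34.5 to 53.1 CPM against 14.7 to 31.9) were higher in the basal-like clusters without overlap, as were 22.5% of all genes. The Per2 ranges overlapped at ZT12 (25.2 to 30.3 CPM against 10.6 to 32.7). So did those of Per3 (126 to 210 CPM against 55.3 to 148) and Ciart (9.56 to 19.6 CPM against 14.6 to 21.1). At ZT0 the Cry1 ranges overlapped, 21.2 to 51.1 CPM in 3 basal-like against 28.7 to 40.7 CPM in 5 differentiated-like clusters. The highest of these ZT0 values belonged to cluster 8. Cry2 did not overlap at ZT0 either, at 15.8 to 23.7 against 6.21 to 9.73 CPM, where 27.4% of all genes had higher and 11.6% lower basal-like clusters without overlap. The unnamed clusters 12 and 14, with 8.02 and 10.5 CPM of Cry1 at ZT12, stood with the basal-like ones.

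**Figure D3:**
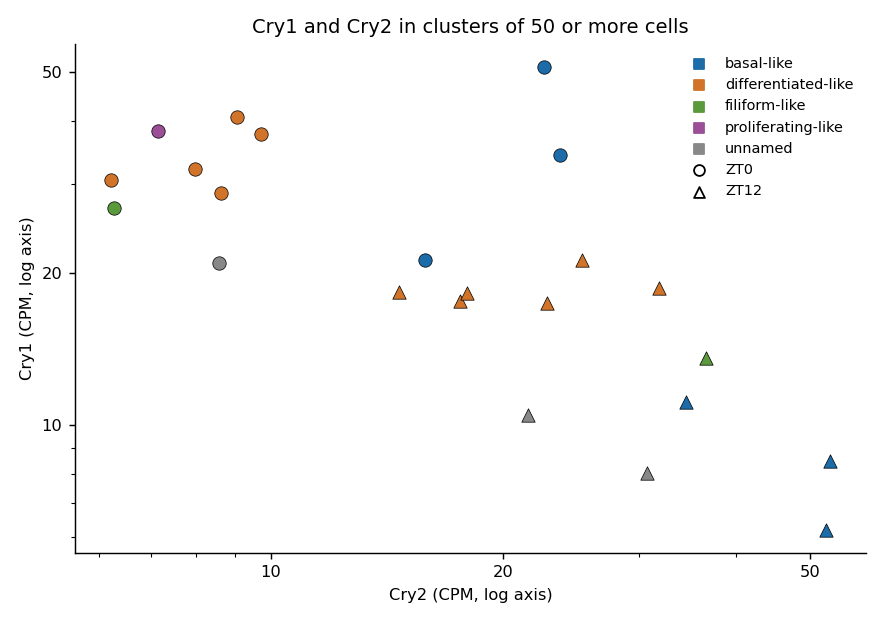
Cry1 against Cry2 (CPM, both axes log) in the 11 ZT0 clusters (circles) and 12 ZT12 clusters (triangles) of at least 50 cells, coloured by class. Basal-like clusters have the highest Cry2 within ZT0, and at ZT12 all 3 have less Cry1 than any differentiated-like cluster.

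Over the 12 ZT12 clusters, log2(CPM + 1) of Cry1 and Cry2 had a Pearson r of -0.71, Per3 and Cry2 of 0.89, Per1 and Per3 of 0.78, and Per1 and Cry1 of -0.69. Ciart did not follow the other genes there, with r of -0.003 with Per1, -0.18 with Per2, -0.19 with Per3, -0.41 with Cry2 and 0.42 with Cry1. Per2 and Cry1 gave -0.30, Per3 and Cry1 -0.59, and Per1 and Per2 0.68, Per1 and Cry2 0.75, Per2 and Per3 0.71, and Per2 and Cry2 0.62. Over the 11 ZT0 clusters the first 4 pairs gave 0.27, 0.43, 0.36 and 0.53. The clusters of a time share a library and differ in depth per cell, so these values are descriptions.

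In single cells the genes were sparse. Each cell was thinned to 10000 UMIs, which left out 107 shallower cells at ZT0 and 165 at ZT12. Per3 was detected in 11.04% (164 of 1486) of ZT0 cells and in 63.1% (1548 of 2455) of ZT12 cells. Per1 was detected in 6.39% and 22.7%, Per2 in 4.98% and 18.6%, Cry2 in 11.6% and 26.6%, and Ciart in 1.95% and 13.6%. Cry1 was detected in 28.7% and 13.8%. Without thinning, the share for Per3 was 26.4% and 83.8%, and for Cry1 56.1% and 29.1%. No cell type in these libraries is known to lack the clock, so the share that free RNA would give could not be read.

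The share of basal-like cells with Cry1 was 27.6% (23.5 to 32.1) at ZT0 and 6.51% (4.803 to 8.58) at ZT12. In differentiated-like cells it was 28.8% (25.2 to 32.6) and 17.8% (15.8 to 19.9). The ZT12 intervals of these classes do not overlap, while the ZT0 ones do. Per3 was detected in 74.3% (70.9 to 77.4) of basal-like and 59.5% (56.9 to 62.2) of differentiated-like cells at ZT12. At ZT12 the variance of Per3 UMIs per thinned cell was 1.49 times its mean, and for the other genes this ratio lay between 1.05 for Per1 and 1.17 for Per2. The mean was 1.23 UMIs for Per3 and between 0.153 for Ciart and 0.328 for Cry2 among the others. The ratio can rise with the mean, so it does not rank the genes by their spread between cells. In filiform-like cells at ZT0, Per1 was detected in 0 of 73 thinned cells, which allows a share of up to 4.11% by the limit of 3 counts (exact 95% upper bound 4.93%). Without thinning it was detected in 6.82% of the filiform-like cells.

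At ZT12 more of the 6 genes were found in the same cell. Cells with at least 3 of the 6 made up 1.68% (1.09 to 2.47; 25 of 1486) at ZT0 and 18.9% (17.3 to 20.5; 463 of 2455) at ZT12. Multiplying the single shares as if the genes were independent gave 1.42% and 17.1%. Cells with none made up 49.6% at ZT0 and 14.8% at ZT12, and 1 cell, at ZT12, held all 6. In basal-like cells the share with at least 3 was 3.46% (1.95 to 5.64) and 26.6% (23.4 to 30.01), and in differentiated-like cells 1.15% (0.462 to 2.35) and 16.6% (14.6 to 18.6). Filiform-like cells gave 0 of 73 at ZT0 (up to 4.11% by the limit of 3 counts, exact 95% upper bound 4.93%) and 13.2% (7.56 to 20.8) at ZT12, and proliferating-like cells 0.535% and 16.7% (8.92 to 27.3).

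**Figure D4:**
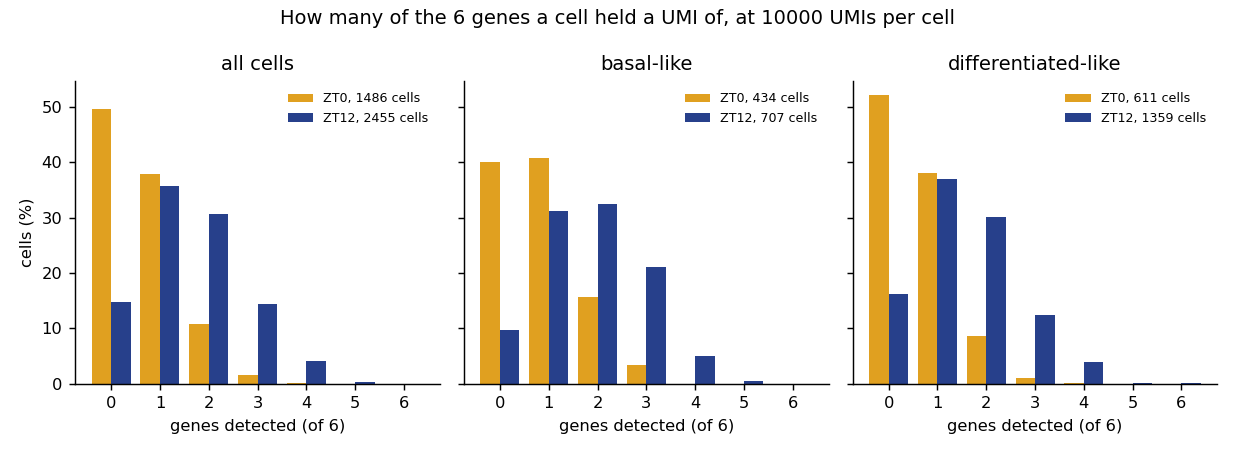
Share of cells (%) by how many of the 6 genes had at least 1 UMI after thinning to 10000 UMIs per cell, in all cells, basal-like and differentiated-like cells, with the number of cells in each legend. ZT0 cells lie mostly at 0 and 1 gene, while ZT12 cells reach 2 and 3 genes more often, with 18.9% of all ZT12 cells at 3 or more.

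For each of the 15 gene pairs, the cells with both genes were divided by the number expected from the single shares. At ZT12 the median of the 15 ratios was 1.03, from 0.928 for Per3 and Cry1 to 1.28 for Per1 and Per2. At 1.2 or more stood 2 of the 15 pairs, against 1.66% of the pairs that the 6 genes form with all other genes of at least 20 CPM and 5 expected cells. That count was 1 with another seed of the thinning and 0 of 15 when cells were thinned to 20000 UMIs. With 2 UMIs required for detection, 4 of the 5 pairs with enough cells reached the limit. The share of all gene pairs was not counted under these settings. In the main setting, among genes detected no more often than the most detected of the 6, 2.098% of pairs reached the limit.

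Per1 and Per2, which lay highest, were both detected in 133 ZT12 cells, where 104 were expected. Per2 was found in 23.8% (20.4 to 27.6) of the cells with Per1 and in 17.1% (15.4 to 18.9) of those without. With the expectation summed within clusters, the ratio of this pair was 1.21. It was 1.45 in differentiated-like cells (70 cells with both genes, 48.1 expected) and 1.06 in basal-like cells (50 and 47.1). Per1 and Ciart followed at 1.26, and Per2 and Per3 at 1.16, with Per3 in 73.1% (68.8 to 77.1) of the cells with Per2 and in 60.8% (58.6 to 62.9) of those without.

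The 5 pairs of Cry1 at ZT12 had ratios from 0.928 (with Per3) to 0.997 (with Cry2). With the expectation summed within clusters these ratios ran from 0.923 (with Ciart) to 1.101 (with Cry2). At ZT0, 10 pairs had at least 5 expected cells, and their median was 1.01, from 0.668 (Per1 and Per3, 7 cells) to 1.45 (Per1 and Cry2, 16 cells), with 3 at 1.2 or more. Of the pairs with all other genes 7.97% reached that limit, and 14.3% of those with genes detected no more often than the most detected of the 6.

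**Figure D5:**
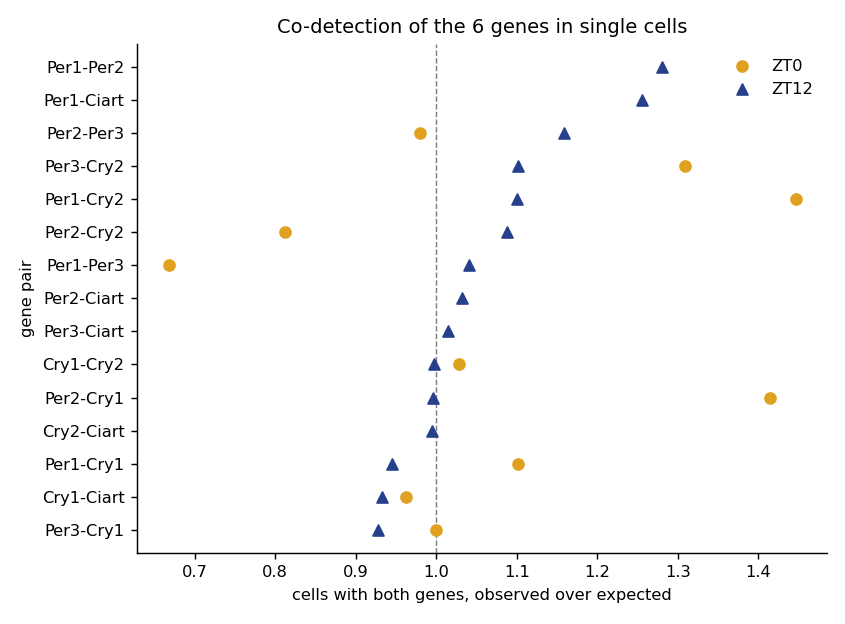
Cells with both genes of a pair, observed over expected from the single shares, in all cells thinned to 10000 UMIs, for the 15 pairs at ZT12 (triangles) and the 10 pairs with at least 5 expected cells at ZT0 (circles). ZT12 points lie between 0.928 and 1.28, and ZT0 points, which rest on fewer cells, spread from 0.668 to 1.45.

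The genes that act on or beside the repressors were counted by the same 2-fold limit in all cells, where 0.283% of all genes were called higher and 2.49% lower. Of the 10 kinases of PER and CRY, such as casein kinase 1 epsilon (Csnk1e, with 45.5 and 40.6 CPM), 0 were called in either direction. A count of 0 in a list of this size is near those shares. The count was also 0 for the 4 phosphatases, the 8 partners of the repressor complex and the 9 genes of the CREB and SIK inputs to Per1. The median log2 ratios of these 4 lists were -0.10, -0.06, -0.05 and -0.19, against -0.03 over all genes. Of the 10 measured ubiquitin enzymes, 1 was called. Usp2, a protease that removes ubiquitin from clock proteins, had 27.8 CPM and then 80.8 CPM (ratio 2.91, 2.74 to 3.09). In basal-like cells Timeless, named here after its values were seen, was the 1 of 8 complex partners called higher (0.71% of all genes), from 6.00 to 22.3 CPM. The 10 immediate early and heat shock genes, which tissue digestion can raise, gave 0 calls in all cells, with sums of 4537 and 4025 CPM.

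The other lists of the clock were read against the same shares of 0.283% higher and 2.49% lower. Of the 3 measured activators 1 was called lower at ZT12, Arntl, which had 22.9 CPM (21.6 to 24.3) in the ZT0 library and 1.63 CPM (1.33 to 1.96) in the ZT12 library and is named here after its values were seen. Clock was at 96.9 and 59.9 CPM. In basal-like cells 3 of 4 activators were called lower, against 1.02% of all genes. In the REV-ERB and ROR loop, 2 of 4 were called higher, Nr1d1 (11.1 to 60.9 CPM) and Nr1d2 (8.53 to 58.9 CPM), which repress Arntl and Cry1, while Rora was at 108 and 155 CPM. The 3 measured PAR bZip factors, which bind the D-box, were all called higher, with Dbp at 3.53 and 194 CPM (ratio 54.8, 47.2 to 64.0). Of the 2 DEC repressors Bhlhe41, also named after its values were seen, was called higher, from 3.19 to 26.8 CPM. These lists were chosen with results of these libraries known, so their direction is not independent evidence.

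Likeness of pattern was measured as Pearson's r of log2(CPM + 1) over 23 groups, the 11 ZT0 and 12 ZT12 clusters, among 5805 genes of at least 20 CPM. Groups of both libraries enter, so the gap between the libraries is part of r, and the groups share libraries and depth. Dbp came first for Per1 (r = 0.96), Per2 (0.95) and Per3 (0.96). The next for Per1 were Nr1d1 and Per3 (both 0.94), for Per2 they were Per3 (0.92) and Tef (0.91), and for Per3 they were Tef (0.93) and Nr1d2 (0.92). Cry2 was closest to Nr1d2 (0.92), Tef and Tsc22d3 (both 0.91), and Ciart to Rabl6, Dbp and Per3 (all 0.85). Cry1 was closest to Ndufb3 and Otulin (both 0.85) and to H2-K1 (0.83).

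After centring within each library, the closest genes were mostly others. For Per1 they were Nr1d1 and Zbtb20 (both 0.77) and Dbp (0.73). For Per2 they were Foxp4 (0.84), Trerf1 (0.83) and Mphosph8 (0.82), and for Per3 Higd2a (0.80), Snap23 (0.78) and Sesn1 (0.77). Cry1 was closest to Acsl5 (0.77), Ciao2b and Oxsr1 (both 0.72), Cry2 to Pfdn5 (0.89), Sh3d19 and Foxp2 (both 0.84), and Ciart to Palld (0.70), Pgk1 and Krt76 (both 0.68).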

How the data were processed

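The deposited values were raw UMI counts per gene and cell barcode, 1 matrix per library. Per the file headers the matrices were written by Cell Ranger 4.0.0, while the submitters' processing notes name Cell Ranger 2.1.1 and the mm10 build. No source used here names the annotation release. ZT0 held 1726 barcodes and ZT12 2819. Cells were kept at 500 genes or above and under 10% mitochondrial UMIs (129 and 191 barcodes failed), less 4 and 8 doublets called by Scrublet in scanpy 1.11.5. These are 0.250% and 0.304%, so doublets were in effect not removed. The analysed cells held 49256011 UMIs at ZT0 and 67059151 at ZT12.

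Cells were clustered on log counts scaled to 10000 each, over 2000 variable genes that left out sex-linked, ribosomal, mitochondrial, stress-induced and clock genes (30 principal components, 15 neighbours, Leiden resolution 1, leidenalg 0.10.2). Classes took the best mean marker score; further limits on naming were set after the clusters were seen. UMIs were summed over cells, scaled to CPM, and given with exact Poisson 95% intervals. Ratios carry exact conditional binomial intervals and shares exact Clopper-Pearson ones. All cover counting error only, since no replicate exists and no p-value is given. PCR duplicates are collapsed by the UMIs. In simulated counts for all cells, 63 of 63 genes changed 2.5-fold and 0 of 68 changed 1.5-fold met the 2-fold rule. The simulation shows only how the rule treats changes of a set size. It cannot show how far libraries taken at the same time differ, since no replicate exists to measure that. It therefore does not bear on whether the called differences would recur in other libraries.

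The 6 genes, the gene lists and the markers were chosen with earlier results of these data known. Named genes were the 6 genes, at most 3 genes per list with the largest log2 ratio among those of at least 20 CPM, the 3 most alike genes per member, and genes said to be named after their values were seen. Alternatives covered filters, doublets, scaling (edgeR 4.0.16 TMM), pseudocount, limits, clustering and thinning.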

Additional observations from a re-analysis of the deposited data

How the results depend on the processing

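The direction of the 6 genes between the times was the same under each alternative run, in 234 ratios of 5 cell sets. Of these, 208 lay within the counting interval of the reported ratio and 26 outside it. The counts of called genes were 5 or 6 throughout, and Cry1 was the gene that moved across the 2-fold limit. The smallest Cry1 difference was in filiform-like cells with per-cell CPM averaged over cells (log2 ratio -0.27, in place of -0.72). Between classes, the Per3 ratio of basal-like over differentiated-like cells at ZT0 turned from 1.33 to 0.9501 without the basal-like clusters mostly of 1 library, and to 0.952 when such differentiated-like clusters were left out too. These settings were chosen after seeing the data. The share of ZT12 cells with at least 3 genes depends on depth by construction. It was 5.15% at 5000 UMIs per cell (0.197% at ZT0), 44.2% at 20000 UMIs (6.68% at ZT0), and 0.693% (0% at ZT0, exact 95% upper bound 0.248%) when 2 UMIs were required. The number of ZT12 pairs at the co-detection limit was 4 at a limit of 1.1 and 0 at 20000 UMIs. It was 1 with another seed and 4 of 5 pairs when 2 UMIs were required. The cause of the last 3 was not tested, and the share of all gene pairs was not counted under any of these settings. Leaving out clusters mostly of 1 library left 40 proliferating-like cells at ZT12, under the 50 required, so that alternative was not run, nor was the ZT0 pair count with 2 UMIs required, where no pair had 5 expected cells. No paired analysis was possible because each time has 1 library. With 1 library per time, differences between mice, days or preparations cannot be told apart from time of day, and Ciart, Per1 and Per2 in filiform-like cells at ZT0 rest on 2 to 6 UMIs.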

Other observations

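The transcript of Dbp allowed a further look at single cells, as a clock output gene that lies outside the 6. At ZT12, with cells thinned to 10000 UMIs, Dbp was detected in 1825 of 2455 cells. Per3 was detected in 67.2% (65.0 to 69.3) of the cells with Dbp and in 51.1% (47.1 to 55.1) of those without. Cry2 was detected in 28.7% (26.6 to 30.8) and 20.5% (17.4 to 23.8), and Per1 in 24.4% (22.5 to 26.5) and 17.8% (14.9 to 20.99). Per2 was detected in 19.5% and 16.2% and Ciart in 14.5% and 10.8%, with overlapping intervals. Cry1 differed in the other direction, with 12.7% (11.2 to 14.3) of the cells with Dbp and 17.3% (14.4 to 20.5) of those without. Class was not held fixed in these shares, and basal-like cells had more Dbp (356 CPM) and less Cry1 than differentiated-like cells (149 CPM of Dbp).

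At ZT0, Dbp was detected in 55 of 1486 cells. Per1 was found in 20% (10.4 to 33.0; 11 cells) of these and in 5.87% (4.71 to 7.22) of the others. Per3 was found in 21.8% (11.8 to 35.0; 12 cells) and 10.6% (9.07 to 12.3). The Per3 intervals overlapped, as did those of the other 4 genes, with Per2 in 5.45% and 4.96%, Cry1 in 30.9% and 28.6%, Cry2 in 10.9% and 11.7%, and Ciart in 0 of 55 and 2.03%. The counts of cells with both genes are small, and no test was made.

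The 35 simple epithelial-like cells of each library, too few for the calls above, had 26 Cry1 UMIs at ZT0 (30.1 CPM) and 3 at ZT12 (4.65 CPM). Their Per3 level was 15.1 CPM at ZT0 and 99.2 CPM at ZT12.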
